A study of Oryza sativa with 23 samples.

Results

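The 158 loci described here had strong root signal in Vandana and its derivative under drought and weak signal in IR64 and its derivative. They were chosen from a deposited table of log2 values by a single rule. The lowest value over the 6 drought arrays of 481-B and Vandana had to exceed the highest value over the 6 drought arrays of OsNAM Event 2 and IR64 by more than 2 log2 units, and the scanner software had to mark the probe as well above background on all 6 arrays of 481-B and Vandana. Of the 52901 probes of the array, each standing for 1 locus, 158 met the rule (0.299%), and they belonged to 158 distinct loci. The drought difference between the backgrounds is therefore a description of how the loci were selected and was not tested. By the mirrored rule, 127 loci were higher in OsNAM Event 2 and IR64.

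The study hybridised root RNA to 23 custom one-colour arrays and asked how a drought-yield locus and the transcription factor gene OsNAM12.1 act on root expression. 481-B is a near isogenic line of Vandana that carries the drought-yield interval qDTY12.1 from the cultivar Way Rarem, and it was set against Vandana, the recurrent parent. OsNAM Event 2 is 1 transgenic event of IR64 that overexpresses OsNAM12.1, and it was set against IR64, the untransformed cultivar; the promoter of the transgene is not given in the sources used here. Roots of all 4 genotypes were collected at 25 days after sowing, under drought (soil left to dry from 75% of field capacity) or well watered (field capacity for 481-B and Vandana, 1.2 times field capacity for OsNAM Event 2 and IR64). Every combination had 3 arrays except well-watered OsNAM Event 2, which had 2. Background and well-watered soil moisture cannot be told apart in the well-watered comparison. Seed was sown in 5 biological replicates, and it is not stated whether an array held 1 plant or a pool, so that p-values measure the spread between arrays only. OsNAM Event 2 and IR64 are called the IR64 lines below.

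Cultivated rice falls into deeply separated groups, and Vandana, an upland aus cultivar, and IR64, an irrigated indica cultivar, come from different ones. Such groups are known to differ by genes that are present in one and absent from the other, often in tandem families and among transposable elements, and by sequence differences within shared genes. The locus names of the array are those of the rice reference genome, which comes from the japonica cultivar Nipponbare. A weak signal on such a probe in one cultivar can mean that the locus is missing, that it is not transcribed or that the transcript differs under the probe, and expression arrays alone cannot tell these apart.

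All values below are log2 signals after quantile normalization, on which the median of all probes was 3.80 on every array. Arrays differed in brightness, with 31.6% to 64.2% of spots well above background, and the well-watered Vandana array labelled replicate 3 was the dimmest. The array labelled Vandana well watered replicate 2 stood apart. The median over the 158 loci was 1.55 on it, against 6.46 and 6.37 on the well-watered Vandana arrays 1 and 3, 6.48, 6.64 and 6.71 on well-watered 481-B, and 1.35 to 2.07 on the 5 well-watered arrays of the IR64 lines. In 150 of the 158 loci its value was no higher than the highest of the 11 IR64-line arrays, against 3 loci for the array labelled replicate 1 and 26 for replicate 3. Whether that label is right could not be settled from the sources used here, and every well-watered Vandana value that includes the array carries this doubt. Well-watered OsNAM Event 2, the group with 2 arrays, has the labels replicate 1 and 3, and no replicate 2 of it was analysed here. The array was kept under its label, and the counts and calls that rest on it are given with and without it. The root markers Lsi1, Lsi2 and RCc3 were well above background on 23, 22 and 23 of the 23 arrays. The 4 leaf markers (3 genes of the Rubisco small subunit and 1 of a light-harvesting chlorophyll-binding protein) were also present, with a summed level of 6.23 to 15.2 over the arrays.

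**Figure D1:**
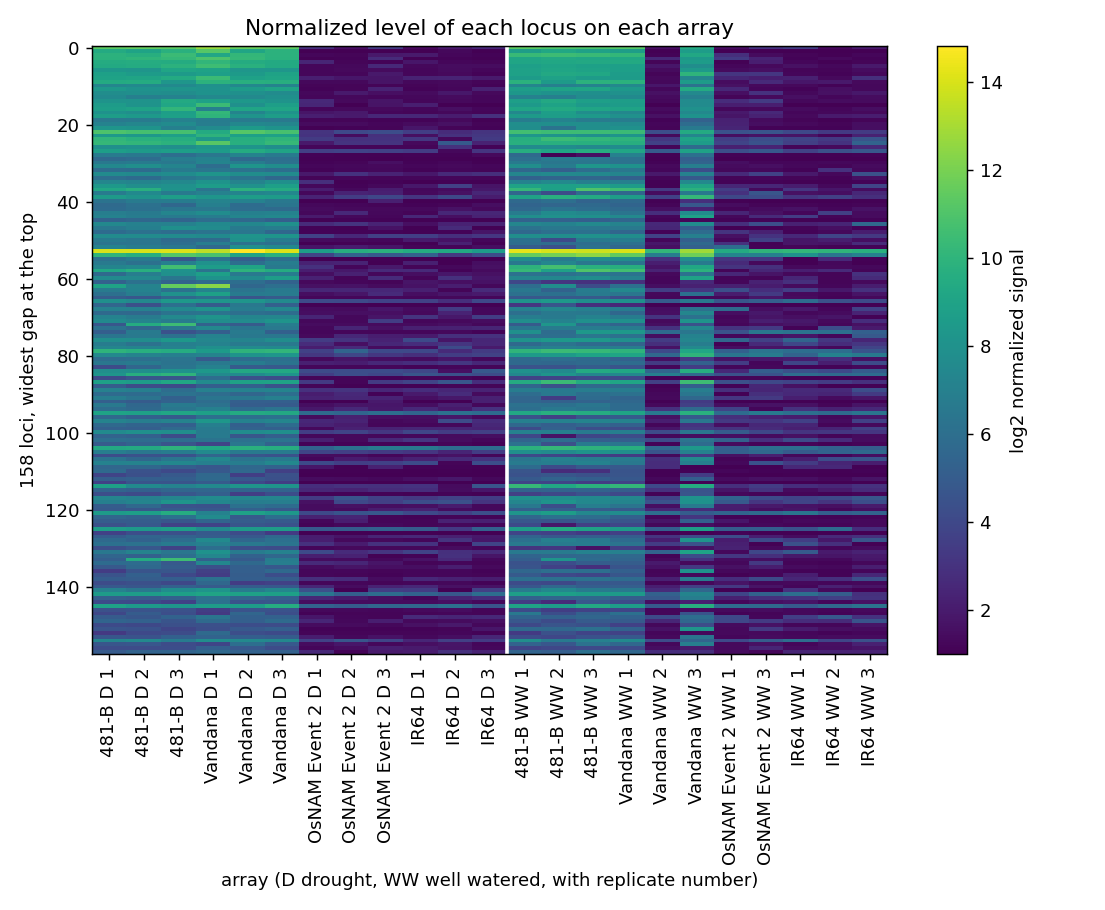
Log2 normalized signal (colour) of the 158 loci (rows, widest gap at the top) on the 23 arrays (columns, drought left of the white line, well watered right of it). The columns of 481-B and Vandana are bright and those of the IR64 lines dark, except that the array labelled Vandana well watered replicate 2 is dark with a locus median of 1.55.

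The rule asked for clear signal under drought in 481-B and Vandana, so the levels there describe the selection. The mean level of the loci over the drought arrays of 481-B and Vandana had a median of 6.78 (4.15 to 14.1 over the 158 loci). Over those of the IR64 lines the median was 1.68 (1.01 to 9.27). The median difference was 4.40 log2 units (2.70 to 9.35), and it was 3.45 where loci not detected in the IR64 lines were set at their lower bound, explained below. With normexp background correction and an offset of 50, which raises dim spots, the median difference was 1.54.

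Detection on the IR64 lines varied. For 122 of the 158 loci (77.2%) no drought array of the IR64 lines was well above background, 31 loci were well above background on 1 to 5 of those arrays, and 5 loci on all 6. A working description as loci expressed in the Vandana background alone could therefore apply, under drought, to 122 at most and not to 36. Signal that is not well above background does not show that a locus was silent. Of the 122, 103 were also dark on all 5 well-watered arrays of the IR64 lines (84.4%), beside 81.3% among all 18894 probes of the array that were dark on the 6 drought arrays. Where no array of the IR64 lines was well above background, each fold is a lower bound: the dim side was set, array by array, to the weakest signal that any probe had above background there, or to the probe's own signal where that was higher. Over the 122 loci this bound ran from 1.72-fold to 297-fold under drought, with a median of 7.09-fold. It is a bound for the quantile normalized signal only and does not hold after normexp correction.

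The 5 loci detected on all 6 IR64-line drought arrays were LOC_Os08g06415, LOC_Os08g13699, LOC_Os03g42190, LOC_Os05g06630 and LOC_Os09g36180, and they differed by 9.27-fold to 27.8-fold between the backgrounds under drought. LOC_Os08g06415 was the brightest of the 158 loci. Its values were 13.99, 13.98 and 14.08 in 481-B and 13.46, 14.81 and 14.10 in Vandana under drought, against 8.69, 9.64 and 9.81 in OsNAM Event 2 and 9.51, 9.33 and 8.64 in IR64. It was a strongly expressed locus in both backgrounds, at unequal levels.

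The gap that the rule used had a median of 3.04 log2 units and ran up to 7.94. Just inside lay LOC_Os05g10590 with a gap of 2.03, LOC_Os12g01880 with 2.03 and LOC_Os11g44180 with 2.03. Just outside lay LOC_Os05g23140 with 1.99, LOC_Os12g22470 with 1.97 and LOC_Os11g46080 with 1.96. A further pair, LOC_Os09g10290 (2.09) and LOC_Os10g20060 (2.02), had the gap but not the signal on all 6 arrays.

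The widest gap belonged to LOC_Os11g14544, on chromosome 11. It read 11.32, 11.51 and 11.33 in 481-B and 12.67, 11.59 and 11.39 in Vandana under drought, against 2.93, 1.58 and 3.38 in OsNAM Event 2 and 1.36, 1.93 and 2.54 in IR64. The signal under drought was at least 297-fold higher in 481-B and Vandana. When well watered it was 11.35, 11.01 and 10.96 in 481-B and 11.15, 1.57 and 9.42 in Vandana, against 1.53 and 3.03 in OsNAM Event 2 and 3.52, 1.28 and 2.00 in IR64. The single low value among the Vandana arrays was that of replicate 2.

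LOC_Os06g49930 was next, and its neighbour LOC_Os06g49920 was also selected. LOC_Os06g49930 read 9.42, 9.00 and 9.78 in 481-B and 11.18, 9.12 and 9.85 in Vandana under drought, against 1.02, 1.01 and 1.01 in OsNAM Event 2 and 1.02, 1.28 and 1.01 in IR64, where it lay at the floor of the scale. The drought difference was at least 82.2-fold. LOC_Os11g19149 read 9.88, 9.67 and 10.41 in 481-B and 9.18, 10.16 and 9.89 in Vandana under drought, against 1.26, 1.19 and 1.94 in OsNAM Event 2 and 1.99, 1.27 and 1.16 in IR64, at least 90.6-fold.

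The other 9 of the 12 widest gaps were LOC_Os05g46890, LOC_Os01g71540, LOC_Os05g46800, LOC_Os08g10760, LOC_Os01g35789, LOC_Os06g16050, LOC_Os11g29110, LOC_Os01g71590 and LOC_Os11g19530. Over the 12, drought means lay between 7.51 and 11.6 in 481-B and Vandana and between 1.06 and 2.29 in the IR64 lines, with bounds of 17.7-fold to 297-fold. None of the 12 was well above background on any drought array of the IR64 lines.

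Of these, LOC_Os05g46890 and LOC_Os05g46800 lie close together on chromosome 5. LOC_Os05g46890 read 9.81, 10.02 and 10.22 in 481-B and 10.98, 10.20 and 9.83 in Vandana under drought, against 1.06, 1.11 and 2.71 in OsNAM Event 2 and 1.08, 1.12 and 1.11 in IR64, at least 113-fold. LOC_Os05g46800 read 9.40, 9.52 and 9.88 in 481-B and 10.50, 9.78 and 9.40 in Vandana, against 1.27, 1.29 and 2.60 in OsNAM Event 2 and 1.29, 1.48 and 1.46 in IR64, at least 83.4-fold. Both were highest on the same array, Vandana replicate 1, and both had their highest IR64-line value on OsNAM Event 2 replicate 3. That Vandana array had the highest median over all selected loci of the drought arrays, 7.07, and no other drought array shared its slide.

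LOC_Os01g71540 and LOC_Os01g71590 are a pair within 5 array loci on chromosome 1, at unequal levels. LOC_Os01g71540 read 9.50, 9.54 and 9.49 in 481-B and 10.08, 9.48 and 9.40 in Vandana under drought, against 2.41, 1.17 and 1.11 in OsNAM Event 2 and 1.82, 1.27 and 1.17 in IR64, at least 74.5-fold. LOC_Os01g71590 read 7.34, 7.56 and 7.57 in 481-B and 7.96, 7.46 and 7.18 in Vandana, against 1.19, 1.21 and 1.21 in OsNAM Event 2 and 1.20, 1.28 and 1.14 in IR64, at least 17.7-fold.

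Little is known of what these loci encode from the sources used here. A description was at hand for 2 of the 158, in a list of 553 probes that the study chose on these same arrays, so families could not be counted. Neither description is independent evidence of direction. LOC_Os11g15340 is described as a SAM-dependent carboxyl methyltransferase, a family of enzymes known in plants to methylate small acids such as salicylic and jasmonic acid. It read 7.14, 6.78 and 6.46 in 481-B and 5.71, 7.93 and 7.55 in Vandana under drought, against 1.77, 2.04 and 1.80 in OsNAM Event 2 and 1.19, 1.17 and 1.49 in IR64, at least 11.8-fold. When well watered, 1 OsNAM Event 2 array read 5.95 and the other 1.14, so that the backgrounds overlapped there.

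LOC_Os02g54980 is described as a pheophorbide a oxygenase, the enzyme that opens the ring of chlorophyll's breakdown product in senescing leaves. It read 8.21, 9.68 and 10.01 in 481-B and 7.62, 7.66 and 8.22 in Vandana under drought, against 3.58, 4.28 and 3.93 in OsNAM Event 2 and 4.67, 4.35 and 4.23 in IR64. It was well above background on 5 of the 6 IR64-line arrays. The summed level of the 4 leaf markers was 8.49, 14.2 and 15.2 on the same 3 arrays of 481-B and 7.40, 8.77 and 10.9 on those of Vandana, against 6.88, 14.1 and 9.10 in OsNAM Event 2 and 14.3, 7.79 and 6.23 in IR64. The leaf markers overlapped between the backgrounds. Within 481-B the locus was lowest on the array with the least leaf marker signal, and the part of leaf RNA in this was not tested.

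A pair of loci on different chromosomes, named after their values were seen, were highest, within 481-B and within Vandana, on the drought array with the most leaf marker signal. LOC_Os01g58035 read 4.76, 9.49 and 10.48 in 481-B and 5.34, 4.96 and 6.86 in Vandana under drought, and LOC_Os02g24636 read 5.15, 9.48 and 10.54 in 481-B and 5.23, 4.92 and 6.79 in Vandana. In the IR64 lines under drought they read 1.31 to 1.55 and 1.32 to 2.66. The role of leaf RNA in their level was not tested.

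The loci were spread over all 12 chromosomes, most densely on chromosome 11. It held 29 of the 158 (18.4%), beside 7.43% of all array loci, and chromosome 6 held 21 (13.3%), beside 8.42%. Chromosome 1 held 21 as well (13.3%), beside 11.9%. Chromosome 3 was the sparsest, with 6 of the 158 (3.80%) beside 10.2% of array loci. In the mirrored list chromosome 11 held 17 of 127 loci and chromosome 6 held 19, so a large share on these chromosomes was not particular to the 158. None of the 158 was among the 273 probes between LOC_Os12g26030 and LOC_Os12g29550, the qDTY12.1 interval, where a share of 0.299% as on the whole array would leave few or none.

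**Figure D2:**
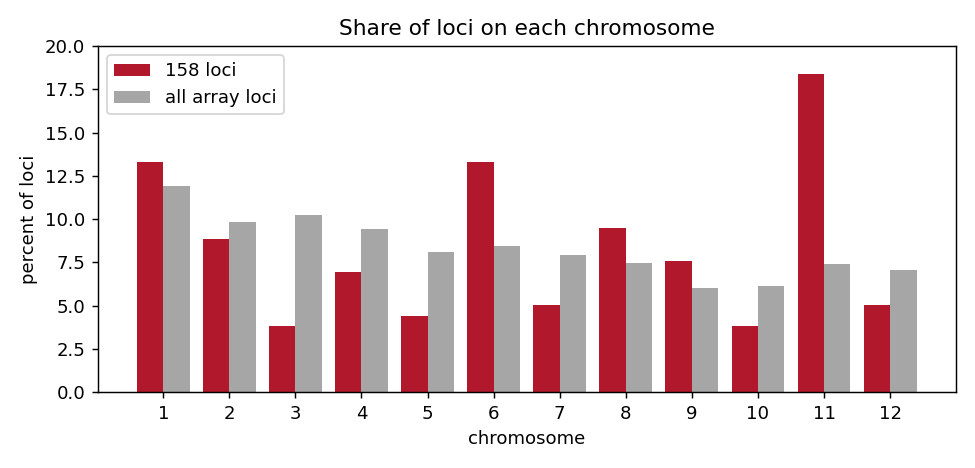
Percent of the 158 loci (red) and of all array loci (grey) on each of the 12 chromosomes. Chromosome 11 has 18.4% of the 158 loci and 7.43% of all array loci.

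Neighbouring loci were often selected together. Of the 158, 36 (22.8%) had another of the 158 within 5 array loci, beside 2.62% of the other array loci that had one of the 158 that near. They formed 17 runs, 2 of 3 loci and 15 of 2. For 17 of the 158 (10.8%) an adjacent array locus was also among the 158, beside 0.557% of the other array loci. Adjacent loci can be duplicates whose transcripts bind each other's probes. The study screened probes against this, and no sequence was examined here.

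The first run of 3 was LOC_Os06g24210, LOC_Os06g24220 and LOC_Os06g24230, with no other array locus between them. LOC_Os06g24210 read 5.50, 5.22 and 5.99 in 481-B and 7.36, 5.31 and 5.60 in Vandana under drought, against 2.14, 2.35 and 1.09 in OsNAM Event 2 and 1.15, 2.95 and 1.77 in IR64. All 3 were dark on every array of the IR64 lines, with bounds of 5.53-fold, 6.44-fold and 5.89-fold under drought. Of the drought arrays, all 3 were highest on Vandana replicate 1, at 7.36, 7.60 and 7.66. The median over all selected loci was also highest on that array.

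The second run of 3, LOC_Os11g34880, LOC_Os11g34910 and LOC_Os11g34920, spanned 5 array loci. LOC_Os11g34920 read 7.53, 7.20 and 6.73 in 481-B and 7.76, 7.68 and 8.12 in Vandana under drought, against 1.29, 1.30 and 3.51 in OsNAM Event 2 and 1.26, 1.37 and 1.45 in IR64. In locus order the bounds were 8.83-fold, 3.11-fold and 16.7-fold, and all 3 were dark on the IR64 lines. The 2 loci between them had a median drought difference of -0.04, and neither was well above background on all 6 drought arrays of 481-B and Vandana, so that a difference could not be seen there. Next in chromosome order among the runs of 2 came LOC_Os01g35789 and LOC_Os01g35830, at least 40.4-fold and 20.5-fold higher under drought, with 3 loci between them, of which 1 was well above background on all 6 of those arrays, at a median difference of 0.12.

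Wider stretches, chosen after the values were seen by joining loci up to 30 array loci apart, held up to 6 of the loci. On chromosome 1, 6 loci lay between LOC_Os01g35330 and LOC_Os01g36294 among 61 array loci. On chromosome 11, 5 lay between LOC_Os11g34570 and LOC_Os11g34920 among 34. On chromosome 5, 4 lay between LOC_Os05g46800 and LOC_Os05g46954 among 16, including 2 of the 12 widest gaps.

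Few of the other loci of these stretches differed by more than 1 log2 unit. Of the 55 others on chromosome 1, 16 were well above background on all 6 drought arrays of 481-B and Vandana, 3 were higher there by more than 1 log2 unit and 1 was lower. Of the 29 others on chromosome 11, 9 were well above background on those arrays and 0 differed by more than 1 in either direction. Of the 12 others on chromosome 5, 7 were well above background there and 2 were higher by more than 1.

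The locus names carried a further difference. In this nomenclature most loci are numbered in even steps along a chromosome and end in 0, and numbers between the steps belong to models added later. Of the 158 loci, 30 (19.0%) had a number that did not end in 0, beside 6.17% of all 52900 array loci with such a name. LOC_Os11g14544, LOC_Os11g19149 and LOC_Os01g35789 were among them.

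The well-watered arrays, which the rule did not use, showed the difference again in 481-B. This comparison was not planned. The planned one, of 481-B and Vandana together, called 0 of the loci with all arrays and is given below. With 481-B alone against the IR64 lines, 8 arrays in all and no array of Vandana, 126 of the 158 loci passed limma at more than 2-fold and a Benjamini-Hochberg adjusted p below 0.05, all higher in 481-B, beside 0.824% of all probes. After Bonferroni adjustment, the rule of the study's methods, 49 passed, beside 0.108% of all probes. In normalized signal the other 32 loci were also higher by more than 1 log2 unit, between 1.06 and 4.16. The median difference over the 158 loci was 4.13 (1.06 to 8.83), against -0.04 over all probes. With normexp background correction it was 1.37, and it was 2.62 with loci dark in the IR64 lines at their bound. For 108 loci no well-watered IR64-line array was well above background, and the bound exceeded 1-fold for 92 of them. The lowest bound was 0.42-fold, so a higher level in 481-B is not shown for the rest of these dark loci.

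On 151 of the 158 loci all 3 well-watered 481-B arrays lay above all 5 IR64-line arrays, beside 4.33% of all probes. The difference was as large within each slide: the median over the loci was 4.32, 4.16 and 4.12 on the 3 slides that held both. With slide as a block 39 loci passed, beside 43 of all 52900 probes that were higher, and with 1 array left out between 93 and 119 loci did. The summed leaf markers were 11.1, 13.5 and 8.04 in well-watered 481-B, against 8.03 and 8.70 in OsNAM Event 2 and 13.3, 9.85 and 9.49 in IR64, and they overlapped.

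With both 481-B and Vandana against the IR64 lines, 0 of the 158 loci passed when all 11 well-watered arrays were fitted, beside 0.0% of all probes (limma). At an unadjusted p below 0.05 there were 150 (94.9%), beside 7.31% of all probes, and the lowest adjusted p was 0.135. Without Vandana replicate 2, 122 of the 158 passed, beside 0.715% of all probes, and 111 of these were among the 126 of 481-B. Leaving out any 1 of the other 10 arrays gave 0 or 1, with 1 without Vandana replicate 1. On 129 of the loci the remaining 5 arrays of 481-B and Vandana lay above all 5 of the IR64 lines, beside 1.53% of all probes.

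**Figure D3:**
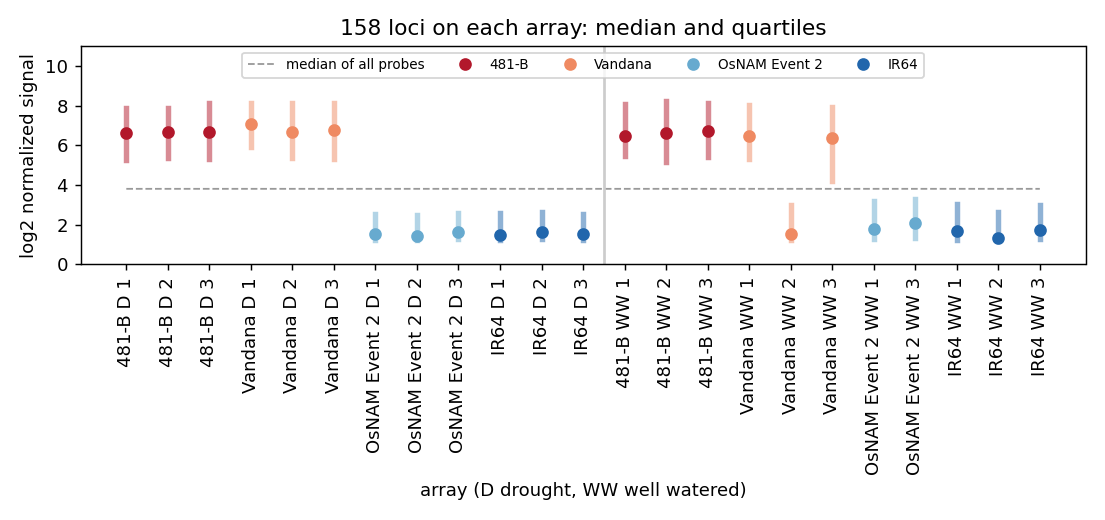
Median (point) and quartiles (bar) of the log2 normalized signal over the 158 loci on each of the 23 arrays, coloured by genotype, with the median of all probes (3.80) as a dashed line. Well-watered 481-B has medians of 6.48 to 6.71 and the IR64 lines 1.35 to 2.07, with Vandana replicate 2 at 1.55.

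The 12 loci with the widest drought gap all passed in well-watered 481-B, with adjusted p between 3.2e-05 and 0.00071 and bounds of 9.17-fold to 145-fold. LOC_Os06g49930 read 8.67, 9.24 and 8.91 in 481-B, against 1.04 and 1.00 in OsNAM Event 2 and 1.01, 1.00 and 1.02 in IR64, at least 32.2-fold (limma adjusted p = 3.2e-05). LOC_Os11g14544 was at least 145-fold higher (adjusted p = 0.00071). With normexp correction, where these bounds do not hold, LOC_Os06g49930 differed by 3.57 log2 units and LOC_Os11g14544 by 5.01. Of the 2 runs of 3, LOC_Os06g24210 (adjusted p = 0.000426) and LOC_Os06g24230 (adjusted p = 0.000105) passed and LOC_Os06g24220 did not (adjusted p = 0.116), and LOC_Os11g34910 (adjusted p = 0.00071) and LOC_Os11g34920 (adjusted p = 0.00113) passed and LOC_Os11g34880 did not (adjusted p = 0.135).

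A few loci differed little when well watered, with weak signal in 481-B or clear signal in an IR64 line. LOC_Os08g03770 read 3.10, 3.25 and 1.68 in well-watered 481-B, against 2.31 and 1.34 in OsNAM Event 2 and 1.55, 1.23 and 1.44 in IR64, and did not pass (difference 1.06 ± 0.43 SE, adjusted p = 0.442). LOC_Os05g31570 read 4.78, 4.18 and 4.95 in 481-B, against 3.96 and 3.42 in OsNAM Event 2 and 2.77, 2.67 and 4.57 in IR64, and the backgrounds overlapped (1.12 ± 0.49, adjusted p = 0.488). LOC_Os07g41890 differed by 1.55 ± 0.51 (adjusted p = 0.328). LOC_Os04g34390 was split, with 5.74, 1.08 and 1.56 on the 3 well-watered 481-B arrays against 6.77, 6.53 and 5.98 under drought, and 1.06 to 1.14 on the well-watered IR64 lines (1.68 ± 1.04, adjusted p = 0.619).

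**Figure D4:**
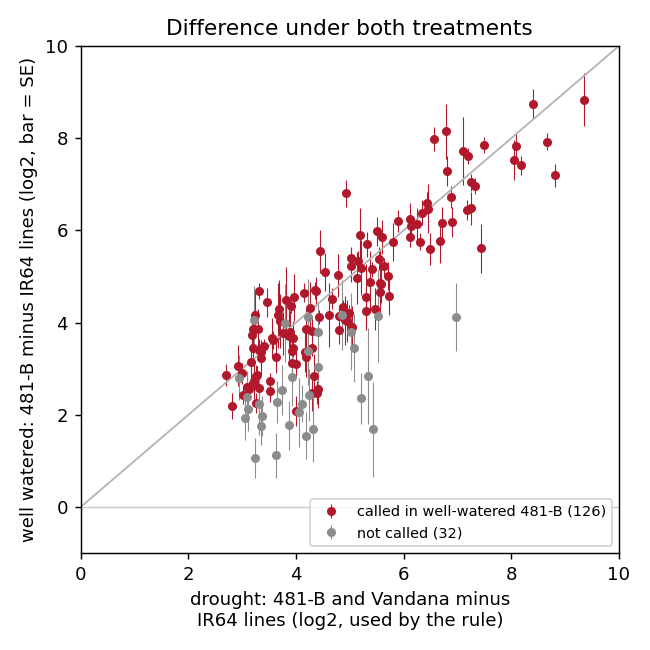
For each of the 158 loci, the log2 difference of 481-B from the IR64 lines when well watered (vertical axis, bar = SE, 3 against 5 arrays) against the drought difference that the rule used (horizontal axis), with the line of equality. The 126 loci that passed are red and the 32 others grey, and all 158 lie above 0.

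In 481-B the loci moved in both directions with drought, and their median difference was near 0. The median drought difference (drought minus well watered) over the 158 loci was 0.01 in 481-B, against -0.00 over all probes, and 81 of the loci were higher under drought. A single locus, LOC_Os07g41890, rose by the test, beside 0.372% of all probes that rose, a count too small to set the loci apart from the array. The difference was over 1 log2 unit in size, up or down, for 29 of the loci (18.4%), beside 9.09% of all probes. All probes include many that were not well above background, so these are not shares of like sets, and the reason for their difference was not tested. The rule also used the drought arrays of 481-B, which favours higher drought values of the loci. At an unadjusted p below 0.05 there were 10 loci (6.33%), beside 7.77% of all probes.

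LOC_Os07g41890 read 5.30, 6.14 and 5.41 under drought and 3.95, 3.11 and 2.97 well watered in 481-B, and 5.80, 5.99 and 5.32 under drought and 2.91, 1.22 and 2.62 well watered in Vandana. The treatments did not overlap in either. The drought difference was 2.27 ± 0.47 in 481-B (SE, limma adjusted p = 0.035) and 3.45 ± 0.47 in Vandana (adjusted p = 0.000757), where no well-watered array was well above background and the signal under drought was at least 3.43-fold higher. Without Vandana replicate 2 it was at least 2.92-fold higher in Vandana (adjusted p = 0.00464). The call in 481-B was lost when any 1 of the 6 arrays of 481-B was left out, with differences of 2.01 to 2.57. Without Vandana well watered replicate 2, which enters through the shared spread, LOC_Os04g34390 passed in 481-B as well (3.63, adjusted p = 0.0456). On the IR64 lines LOC_Os07g41890 was dark under both treatments, at 1.17 to 2.92.

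In Vandana 19 of the loci rose under drought, beside 1.16% of all probes, but the count rested on the array that stood apart. The rule also asked for high values on the Vandana drought arrays, which favours a rise with or without that array. All probes were not chosen in this way, so these are not shares of like sets. Without Vandana well watered replicate 2, 6 rose, beside 0.713% of all probes, and 5 of the 6 were among the 19. The median drought difference over the 158 loci was 2.00 with that array and 0.62 without it, against -0.04 over all probes in both. Without well-watered replicate 1 the count was 79, without well-watered replicate 3 it was 3, without drought replicate 1 it was 2 and without drought replicate 2 it was 11. Among all 52901 probes, 2193, 179, 171 and 231 rose in the same fits. A fit of the Vandana arrays alone called 0 loci and 0 of all probes (limma), of which 5660 probes had an unadjusted p below 0.05. The well-watered array labelled replicate 3 was the dimmest of the series, with 93 of the 158 loci well above background against 156 on replicate 1. With replicate 2 left out, 1 slide held both treatments of Vandana, with that dim array, and the median there was 0.82.

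The 5 loci that rose in Vandana with and without that array were LOC_Os06g41560, LOC_Os07g41890, LOC_Os11g14150, LOC_Os01g39670 and LOC_Os11g14520. LOC_Os06g41560 read 5.04, 6.53 and 5.23 under drought and 2.60, 1.04 and 1.04 well watered in Vandana, where no well-watered array detected it and the signal was at least 3.20-fold higher under drought (adjusted p = 0.000338). Without replicate 2 the bound was 2.73-fold (adjusted p = 0.0031). In 481-B it read 5.58, 4.41 and 6.10 under drought and 3.19, 4.69 and 2.93 well watered, and the treatments overlapped (difference 1.76 ± 0.51, adjusted p = 0.167).

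LOC_Os01g39670 read 7.17, 7.15 and 6.54 under drought and 5.73, 1.07 and 2.84 well watered in Vandana (3.74 ± 0.71, adjusted p = 0.013). Without replicate 2 the difference was 2.67 ± 0.56 (adjusted p = 0.0302). LOC_Os11g14150 read 7.37, 5.74 and 6.89 under drought and 5.06, 2.00 and 1.35 well watered in Vandana, and LOC_Os11g14520 read 5.55, 4.72 and 4.46 under drought and 3.40, 1.29 and 3.43 well watered. In all 3 loci the drought arrays lay above the well-watered ones. LOC_Os11g14150 differed by 3.86 ± 0.71 (adjusted p = 0.0109) and without replicate 2 by 3.46 ± 0.79 (adjusted p = 0.0462), and LOC_Os11g14520 by 2.21 ± 0.42 (adjusted p = 0.0133) and without it by 1.50 ± 0.28 (adjusted p = 0.0158). LOC_Os03g54240 passed with that array (2.94 ± 0.57, adjusted p = 0.0145) and not without it (adjusted p = 0.0586). LOC_Os02g20780 passed only without it (1.30 ± 0.28, adjusted p = 0.0326). In 481-B the first 4 of these loci differed by 0.90, 0.95, 0.52 and 0.28 and did not pass.

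Whether the drought response of the loci differed between 481-B and Vandana was tested as a difference of differences. It passed for 0 of the 158, beside 0.00189% of all probes (limma). At an unadjusted p below 0.05 there were 25 (15.8%), beside 1.72% of all probes. The rule held the drought arrays of both lines high, which limits how far the responses could differ, so the count cannot show that they were alike. Without Vandana well watered replicate 2 it again passed for 0, with 13 at an unadjusted p below 0.05 (8.23%), beside 2.61% of all probes. Without well-watered replicate 1 it passed for 8, beside 4 higher and 14 lower among all 52900 probes. The median of the differences over the 158 loci was -1.84 with all arrays and -0.48 without Vandana well watered replicate 2.

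On the IR64 lines, where most of the loci were dark, a few that were detected when well watered fell under drought. In OsNAM Event 2, 2 of the 158 fell, beside 2.85% of all probes. In IR64, 3 fell, beside 1.74%. Both counts are too small to set the loci apart from the array. The rule held the loci low on the drought arrays of these lines, which favours a fall and leaves little room for a rise. LOC_Os09g12400 and LOC_Os11g17380 fell in both, and LOC_Os02g56400 in IR64. The count was 1 in OsNAM Event 2 without its drought replicate 1, drought replicate 3 or well-watered replicate 1, and 1 in IR64 without its drought replicate 1 or 3 or well-watered replicate 2 or 3. Without Vandana well watered replicate 2, 8 of the 158 fell in OsNAM Event 2, beside 1364 of all 52901 probes, and 7 in IR64, beside 874 of them.

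LOC_Os09g12400 showed that a gap seen under drought need not hold when well watered. It read 1.22, 1.25 and 1.25 under drought and 4.56 and 6.51 well watered in OsNAM Event 2, at least 5.05-fold lower (adjusted p = 0.00558), and 1.23, 1.32 and 1.16 under drought and 6.25, 6.10 and 5.23 well watered in IR64, at least 5.04-fold lower (adjusted p = 0.00156). Without OsNAM Event 2 well watered replicate 3 the call in that line was lost. In 481-B it read 5.10, 6.71 and 4.51 under drought and 7.95, 5.86 and 8.35 well watered (-1.94 ± 0.74, adjusted p = 0.414). When well watered, 481-B and the IR64 lines overlapped and the difference did not pass (1.69 ± 0.71, adjusted p = 0.466).

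LOC_Os11g17380 read 3.26, 3.92 and 3.22 under drought and 6.35 and 6.74 well watered in OsNAM Event 2 (-3.07 ± 0.83, adjusted p = 0.0329), and 2.85, 3.50 and 3.72 under drought and 5.40, 7.11 and 6.65 well watered in IR64 (-3.03 ± 0.74, adjusted p = 0.0248). It was detected on all 5 well-watered arrays of the IR64 lines. LOC_Os02g56400 read 3.18, 2.45 and 3.53 under drought and 4.96, 5.39 and 5.72 well watered in IR64 (-2.30 ± 0.56, adjusted p = 0.0244).

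**Figure D5:**
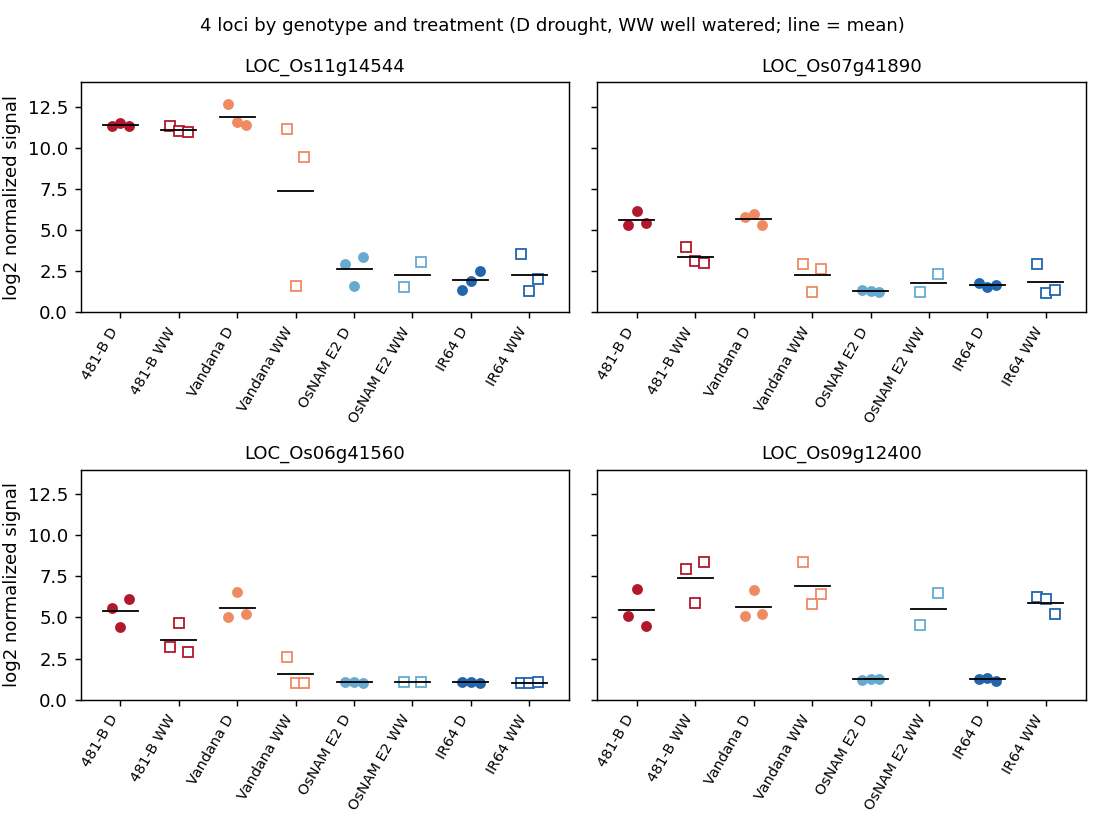
Log2 normalized signal of 4 loci on every array (points, filled for drought and open for well watered) by genotype, with the group mean as a line. LOC_Os11g14544 is at 10.96 or above on all 481-B arrays, LOC_Os07g41890 and LOC_Os06g41560 are higher under drought in Vandana, and LOC_Os09g12400 is at 1.16 to 1.32 on the IR64 lines under drought only.

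No locus passed the test between 481-B and Vandana, at either treatment. Under drought 0 of the 158 differed between them, beside 0.00567% of all probes (limma). At an unadjusted p below 0.05 there were 3 (1.90%), beside 2.03% of all probes. The rule held both lines above the same floor on these drought arrays, and a locus low in either was left out beforehand. The drought count therefore cannot show that the 2 lines were alike. The median difference (481-B minus Vandana) was -0.24 against -0.01 over all probes. On the 2 slides that held both it was -0.12 and 0.01. Without Vandana drought replicate 1 the median difference was -0.06. When well watered 0 differed, beside 0.0% of all probes, with 25 at an unadjusted p below 0.05 (15.8%), beside 2.23% of all probes. Without Vandana replicate 2 again 0 differed, beside 0.0%, with 9 at an unadjusted p below 0.05 (5.70%), beside 2.65% of all probes.

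The well-watered median difference was 1.72 with the array that stood apart and 0.38 without it. Without Vandana replicate 1, which leaves that array and the dim one, 10 loci passed, beside 25 higher and 4 lower among all 52900 probes. On the slide that held 481-B and the Vandana array labelled replicate 1 the median was 0.07, and on the slide with replicate 3 it was 0.84. The largest drought differences were those of LOC_Os02g24636 (2.74 ± 1.14, adjusted p = 1.0) and LOC_Os01g58035 (2.52 ± 1.18, adjusted p = 1.0), whose values are given above beside the leaf markers.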

How the data were processed

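Root RNA was labelled with Cy3 and hybridised to 23 one-colour Agilent arrays. The deposited scanner intensity values came from Feature Extraction (version 11.0 per the submitters' notes, 11.5.1.1 per the file headers), already background-subtracted. The deposited table of log2 values, which chose the loci, was normalized by the authors. It followed the values computed here after centring each probe (r = 0.998 over probes and arrays). Control and outlier spots were left out, log2 processed signals were averaged per probe and quantile normalized, and all 52901 probes were fitted with limma 3.58.1 in R 4.3.3. The 8 groups shared one estimate of spread, and the comparisons of the well-watered backgrounds used the well-watered arrays only. A call needed more than 2-fold and a Benjamini-Hochberg adjusted p below 0.05 over all probes. The number of arrays limits the precision.

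Named loci were the 12 widest gaps, the 3 largest runs (ties in chromosome order), the 6 lowest adjusted p among calls of each drought comparison of 481-B and Vandana, the 4 smallest well-watered differences, those beside the threshold and the 2 described ones. The others were named after their values were seen. The loci, lists and tests were chosen with earlier results of these data known. Plants were sown in randomized complete blocks, and no source ties the replicate numbers to the blocks. Correlations of same-numbered arrays' deviations from their group means ran from -0.42 to 0.53, and between well-watered genotypes from 0.03 to 0.53, not all over 0.1, so the fits had no replicate block, which was an alternative. Alternatives were another scaling, normexp background correction, a detection filter, Bonferroni adjustment, slide or replicate as a block, only the compared arrays, and leaving out each array. The scripts were tested on simulated data. No sequences were used here.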

Additional observations from a re-analysis of the deposited data

How the results depend on the processing

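The number of loci was 283 with a gap of more than 1, 83 with more than 3 and 25 after normexp correction, and 161 to 177 with 1 array left out. The 126 loci of well-watered 481-B became 49 with Bonferroni adjustment and 39 with slide as a block (93 to 119 with 1 array left out), and normexp correction, which gave 92, lowered the median difference over the 158 loci to 1.37 log2 units against 4.13. For 481-B and Vandana together, 0 became 4 with the detection filter, 126 with all 23 arrays fitted and 0 to 122 with 1 array left out. Without Vandana well watered replicate 2 it was 48 with Bonferroni, 87 with normexp, 115 with the 75th percentile shift, 85 with slide as a block and 113 with the replicate block.

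The drought calls were few. In 481-B, 1 became 0 with Bonferroni, the percentile shift or normexp (0 to 2 with 1 array left out), and without Vandana well watered replicate 2 it was 0 with Bonferroni, 2 with normexp, 0 with the shift and 3 with the slide block. In Vandana, 19 became 1 with Bonferroni, 1 with the shift, 12 with normexp, 31 with the filter, 9 with the slide block and 0 with only the compared arrays (2 to 79 with 1 array left out). Without replicate 2 it was 0, 10 (7 higher and 3 lower), 0 and 2 with Bonferroni, normexp, the shift and the slide block, and 7 with the replicate block. In OsNAM Event 2, 2 became 0 with Bonferroni, 5 with the shift, 0 with normexp and 6 with only the compared arrays (1 to 8), and without that Vandana array 0, 1, 14 and 8 in the same order and 8 with the replicate block. In IR64, 3 became 0 with Bonferroni, 0 with normexp, 5 with the filter and 1 with only the compared arrays (1 to 7), and without that array 0, 0, 7 and 7, and 8 with the replicate block. Between 481-B and Vandana when well watered the count was 0 to 10 with 1 array left out, and for the difference in response 0 to 8. With all arrays the replicate block gave 20 in Vandana and 99 in well-watered 481-B and changed no other count by more than 1.5 times. The cause of these moves was not tested. The percentile shift moved the median of all probes by -1.12 under drought in OsNAM Event 2, -0.57 in Vandana and -0.48 in IR64. Over 44 pairs of a named locus and a comparison, no alternative reversed a called direction, and 91 of the alternative values lost a call and 5 gained one. Loci not well above background have a bound only, which limits every fold given against the IR64 lines.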
